A study of Mus musculus with 8 samples.

Results

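The genes described here encode the building blocks of elastic fibres: elastin (*Eln*), fibrillin-1 (*Fbn1*), the microfibril-associated proteins *Mfap2*, *Mfap4* and *Mfap5*, the fibulins *Fbln1*, *Fbln2* and *Fbln5*, and the interface protein *Emilin1*. These 9 genes were chosen by name as structural parts of elastic fibres and microfibrils, with earlier results of these data known. All 9 were among the 17046 genes tested, of 54508 listed. Total RNA was sequenced from the hearts of C57BL/6 mice aged 24 weeks, with 4 *Rnaseh1* knockout (KO) hearts and 4 control hearts labelled wild type (WT, RNase H1+/+). In KO mice a floxed exon 2 of *Rnaseh1*, the gene of the ribonuclease that removes RNA from RNA-DNA hybrids, was deleted by Cre under the muscle creatine kinase promoter (Ckmm-cre), which acts in heart and skeletal muscle. The study's text denotes its controls as floxed mice without Cre, so an effect of Cre itself cannot be told apart from the deletion.

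Elastic fibres let the walls of vessels and other stretched tissues recoil. Fibrillin microfibrils form first and serve as a scaffold, on which fibulins and lysyl oxidases guide the deposition and cross-linking of elastin. In the heart these fibres lie in the coronary and great vessel walls, the valves, the epicardium and the interstitial matrix, and the proteins are made mainly by fibroblasts and smooth muscle cells, not by cardiomyocytes, in which the Cre is active.

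Values are normalised counts, that is, read pairs per gene divided by a size factor of each library. The KO libraries held 27429878 to 30505752 read pairs and the WT libraries 31810103 to 40715847. Mitochondrial genes took 9.46% to 12.3% of the read pairs in KO and 60.2% to 62.6% in WT, which left 24.8 to 27.1 M nuclear read pairs in KO libraries and 11.9 to 16.2 M in WT libraries. The nuclear genes were therefore measured more deeply in KO hearts. *Rnaseh1* itself had 145 to 182 normalised counts in KO and 129 to 158 in WT (log2 difference 0.23 ± 0.12, adjusted p = 0.114). These values sum reads over every exon and cannot show whether exon 2 was lost. By RT-PCR, the study found that transcripts of this gene in knockout hearts lacked the floxed exon. By qPCR, it found a significant reduction in their level. The summed counts here did not show such a reduction, and the reason for this difference was not tested. Differences below are log2 differences, KO minus WT, ± SE, on log2(normalised count + 1) from limma-trend, with p-values adjusted over all tested genes by the Benjamini-Hochberg method. A gene was called higher or lower at an adjusted p below 0.05.

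Of the 9 genes, 8 were higher in KO hearts, none was lower, and *Fbln1* did not pass the test. With limma 0 of the 9 were lower at an unadjusted p below 0.05 as well, and edgeR and DESeq2 also called 0 lower. Among all tested genes 30.7% were called higher and 28.4% lower, so a call by itself was common in this comparison. In 8 of the 9 genes every KO library lay above every WT library, against 28.2% of all tested genes. The median log2 difference of the 9 genes was 1.70, against 0.02 for all tested genes, and 8 of the 9 had a larger difference than 90% of the tested genes. In whole hearts, a change in the number of cells of a type and a change in RNA per cell cannot be told apart.

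**Figure D1:**
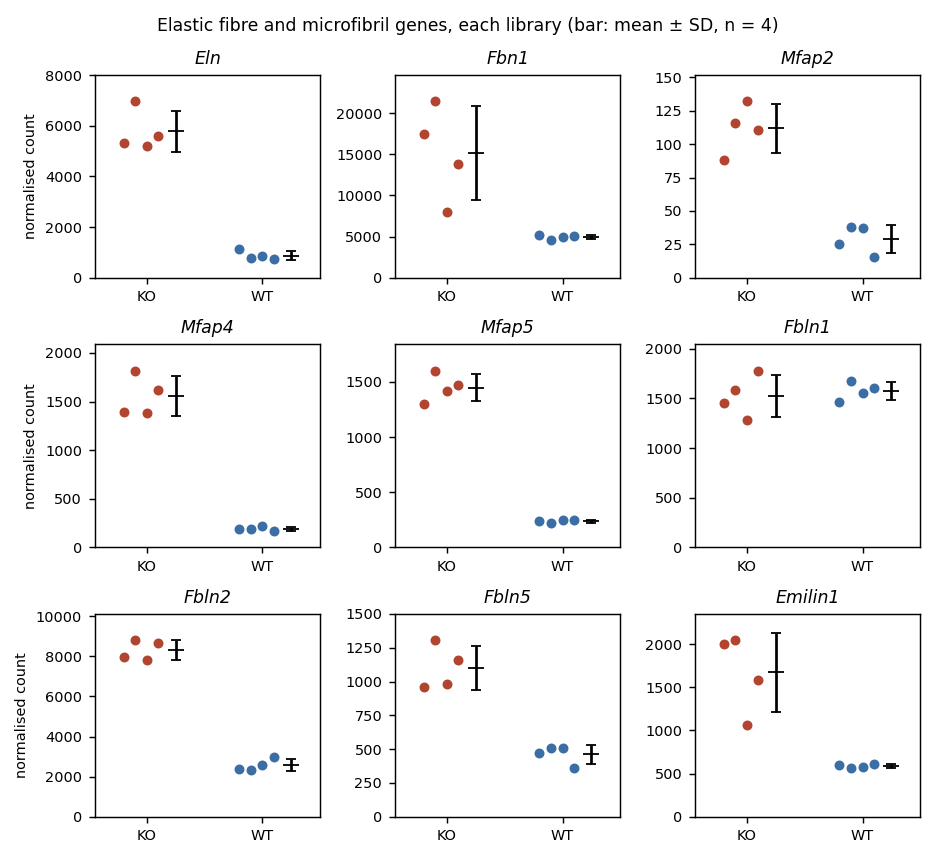
Normalised counts of the 9 genes in each library, with KO on the left and WT on the right of each panel; points are libraries, and the bar beside them is the mean ± SD (n = 4 each). The KO and WT points overlap for *Fbln1* and are apart for the other 8 genes, and the KO points of *Fbn1* and *Emilin1* are widely spread.

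Elastin is the rubber-like core of the fibre. *Eln* lies on chromosome 5 (134702593 to 134747323, minus strand, GRCm38, as are all gene positions here). It had 5336, 6973, 5185 and 5607 normalised counts in the 4 KO hearts, against 1126, 790, 856 and 720 in the 4 WT hearts. The lowest KO heart stood 4.61-fold above the highest WT heart. The means were 5775 ± 817 in KO and 873 ± 178 in WT (SD, n = 4 each), a 6.62-fold ratio, with a log2 difference of 2.74 ± 0.14 (adjusted p = 6.9e-08). Of the 17046 tested genes, 268 had a larger one.

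Fibrillin-1 is the backbone of the microfibril and also binds latent TGF-β complexes. *Fbn1* (chromosome 2, 125300594 to 125507993, minus strand) had 17513, 21460, 7978 and 13758 normalised counts in KO hearts, against 5126, 4581, 4967 and 5012 in WT hearts. The KO hearts spread 2.69-fold between the lowest and the highest, while the WT hearts stayed within 1.12-fold. The coefficient of variation was 37.8% in KO and 4.81% in WT, where the median of tested genes with a mean of at least 100 was 10.3% in KO and 7.02% in WT. *Fbn1* averaged 3.08-fold more in KO, with a log2 difference of 1.54 ± 0.24 (adjusted p = 0.000285).

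*Mfap2* and *Mfap5* encode the microfibril-associated glycoproteins MAGP-1 and MAGP-2, small proteins bound to fibrillin. *Mfap5* (chromosome 6, 122505845 to 122529290, plus strand) had 1302, 1603, 1415 and 1475 normalised counts in KO hearts, against 242, 216, 243 and 245 in WT hearts. Both groups were narrow and far apart, and *Mfap5* had the smallest adjusted p of the 9 genes (log2 difference 2.61 ± 0.08, adjusted p = 3.49e-09). *Mfap2* (chromosome 4, 141010418 to 141015984, plus strand) was the scarcest of the 9, with 88.4, 116, 132 and 111 normalised counts in KO hearts, against 25.6, 38.2, 37.1 and 15.5 in WT hearts. Its lowest KO heart was 2.31-fold above its highest WT heart, and the log2 difference was 1.97 ± 0.28 (adjusted p = 0.000125). The WT values of *Mfap2* rested on 9 to 31 read pairs per library, against 127 to 203 in KO libraries, the fewest of the 9 genes.

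*Mfap4* is a fibrinogen-related protein that binds elastin and fibrillin and sits on the fibre surface. *Mfap4* (chromosome 11, 61485431 to 61488900, plus strand) had 1396, 1818, 1383 and 1616 normalised counts in KO hearts, against 192, 186, 215 and 164 in WT hearts. This was the largest difference of the 9 genes, 8.20-fold between the means and 3.03 ± 0.11 on the log2 scale (adjusted p = 1.01e-08).

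The 3 fibulins did not move together. Fibulin-5 binds elastin, integrins and lysyl oxidase-like enzymes, and is needed for elastic fibre assembly in mice. *Fbln5* (chromosome 12, 101746565 to 101819055, minus strand) had 958, 1306, 981 and 1156 normalised counts in KO hearts, against 472, 506, 511 and 357 in WT hearts, and its log2 difference was 1.25 ± 0.13 (adjusted p = 1.79e-05). Fibulin-2 links fibrillin, elastin and basement membrane proteins. *Fbln2* (chromosome 6, 91212455 to 91272540, plus strand) had 7966, 8811, 7832 and 8679 normalised counts in KO hearts, against 2404, 2337, 2565 and 2975 in WT hearts. The KO hearts were within 1.13-fold of each other, and the log2 difference was 1.70 ± 0.08 (adjusted p = 4.75e-08).

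Fibulin-1, which is found in elastic fibres and basement membranes, was the exception. *Fbln1* (chromosome 15, 85205949 to 85286535, plus strand) had 1451, 1584, 1281 and 1780 normalised counts in KO hearts, against 1460, 1671, 1557 and 1601 in WT hearts. The KO hearts held both the highest and the lowest of the 8 values, and the groups overlapped throughout. The log2 difference was -0.05 ± 0.10 (adjusted p = 0.653), which took its place near the middle of all tested genes, with 54.4% having a larger one. The sign of this value changed when each library was given the same sum of nuclear genes (0.18, adjusted p = 0.14) or of all genes (1.39, adjusted p = 1.78e-07), and without KO replicate 3 (0.03). Scaling to nuclear totals moved the median of all tested genes up by 0.23 and scaling to all totals by 1.42, and relative to that median *Fbln1* stood at -0.07, -0.07 and -0.05 under the authors' size factors, nuclear totals and all totals.

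Emilin-1 sits where elastin meets the microfibrils. *Emilin1* (chromosome 5, 30913402 to 30921277, plus strand) had 1997, 2045, 1064 and 1587 normalised counts in KO hearts, against 601, 566, 575 and 615 in WT hearts. As with *Fbn1*, KO replicate 3 was the lowest KO heart and the WT hearts were close together, with a coefficient of variation of 27.2% in KO and 3.87% in WT. The log2 difference was 1.46 ± 0.18 (adjusted p = 4.26e-05).

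**Figure D2:**
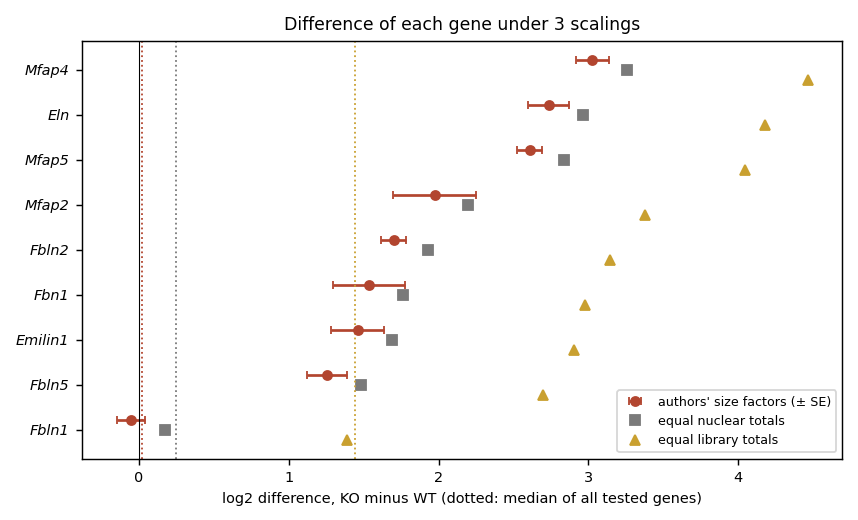
Log2 difference, KO minus WT, of each gene under the authors' size factors (circles, ± SE), equal totals of nuclear genes (squares) and equal totals of all genes (triangles), with dotted lines at the median of all tested genes under each scaling. The genes keep their distance from the dotted line of their scaling, with *Mfap4* farthest above it (3.01, 3.01 and 3.02) and *Fbln1* just below it.

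Gene models that share bases with the 9 genes lay on the opposite strand only, with 267 exonic bases shared by *Eln* and *Gm30003*, 2442 by *Fbn1* and *Gm9913*, and 89 by *Mfap4* and *Mapk7*. The study counted reads by strand, which keeps such pairs separate.

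The sequence just before the transcription start is shown for *Fbln1*, which did not pass the test, and for *Fbln5*, a fibulin that was higher. Of the 6 genes of the 9 with an entry in the RefSeq table of mouse promoters (GRCm38.p6), these were the ones whose 250 bases before the RefSeq start held no annotated exonic base. The windows are chr15:85205699-85205948 on the plus strand for *Fbln1* and chr12:101819120-101819369 on the minus strand for *Fbln5*, written 5′ to 3′ along the gene. Capitals mark the letters of 3 motifs, on either strand: the SMAD-binding element CAGAC, the TEAD motif CATTCC and the GC box GGGCGG.
Fbln1: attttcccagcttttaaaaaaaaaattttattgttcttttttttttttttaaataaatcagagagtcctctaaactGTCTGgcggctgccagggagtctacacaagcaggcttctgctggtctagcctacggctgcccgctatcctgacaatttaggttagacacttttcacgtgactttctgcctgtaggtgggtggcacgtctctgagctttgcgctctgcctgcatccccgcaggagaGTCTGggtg
Fbln5: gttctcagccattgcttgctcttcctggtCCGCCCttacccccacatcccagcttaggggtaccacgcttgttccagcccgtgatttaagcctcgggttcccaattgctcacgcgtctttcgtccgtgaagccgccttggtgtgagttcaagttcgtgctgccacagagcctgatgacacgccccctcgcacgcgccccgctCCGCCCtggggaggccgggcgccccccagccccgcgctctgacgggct
The *Fbln1* window had a GC content of 46.4% and held 2 matches to the SMAD-binding element and none to the GC box. The *Fbln5* window had a GC content of 65.2% and held 2 matches to the GC box and none to the SMAD-binding element. Such matches are common by letters alone, since 42.2% of the 32851 mouse windows of this length held a SMAD-binding element and 32.7% held a GC box. Neither window held the TEAD motif, the AP-1 motif TGANTCA, the TATA box TATAAA or the C/EBP-ATF motif TGATGNAA, which were in 12.6%, 6.75%, 12.4% and 3.45% of all windows. The windows not shown, which held exonic bases, belonged to genes called higher. Among them *Emilin1* had the same counts as *Fbln1*, 2 SMAD matches and no GC box. *Mfap2* had 1 SMAD match, 1 TEAD match and no GC box, and *Fbn1* and *Fbln2* had 1 GC box each and no SMAD match.

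The order of the 9 transcripts differed between the genotypes. Set side by side per kilobase of exonic sequence, the highest mean levels in KO hearts were those of *Fbln2* (1306 normalised counts per kilobase), *Fbn1* (1251), *Mfap4* (808) and *Eln* (713). They were followed by *Mfap5* (404), *Fbln1* (349), *Emilin1* (339), *Fbln5* (159) and *Mfap2* (92.4). Neighbours in this order overlapped between libraries except *Eln* and *Mfap5*, *Emilin1* and *Fbln5*, and *Fbln5* and *Mfap2*. In WT hearts the highest levels per kilobase were those of *Fbn1* (406), *Fbln2* (403) and *Fbln1* (360), and these 3 overlapped from one to the next. Well below them came *Emilin1* (119), *Eln* (108) and *Mfap4* (98.5), then *Fbln5* (66.8) and *Mfap5* (65.9), and last *Mfap2* (24.0), with overlap from *Emilin1* to *Eln*, from *Eln* to *Mfap4* and from *Fbln5* to *Mfap5*. With the length of the longest transcript in place of all exonic bases, which are 3853 and 8098 bases for *Eln*, *Eln* had 1499 per kilobase in KO and 227 in WT, placing it at rank 2 in KO and rank 4 in WT. The highest WT levels were then those of *Fbln2* (537), *Fbln1* (430) and *Fbn1* (411), and *Fbln2* no longer overlapped the next.

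Of the summed level per kilobase of the 9 genes, *Fbln1* made up 6.48% ± 0.81 in KO and 21.8% ± 1.54 in WT (SD, n = 4 each). The shares of *Eln* were 13.2% ± 0.997 in KO and 6.53% ± 1.33 in WT, those of *Mfap4* 14.98% ± 1.23 in KO and 5.97% ± 0.66 in WT, and those of *Mfap5* 7.54% ± 1.01 in KO and 3.99% ± 0.16 in WT. In each of these 4 genes the KO and WT libraries did not overlap. *Eln* depended on the length used, and with the longest transcript its shares were 21.1% in KO and 10.96% in WT. The share of *Fbln2* was 24.4% in both genotypes (SD 2.80 in KO and 2.34 in WT), and that of *Fbn1* was 22.5% ± 5.82 in KO and 24.6% ± 0.82 in WT.

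**Figure D3:**
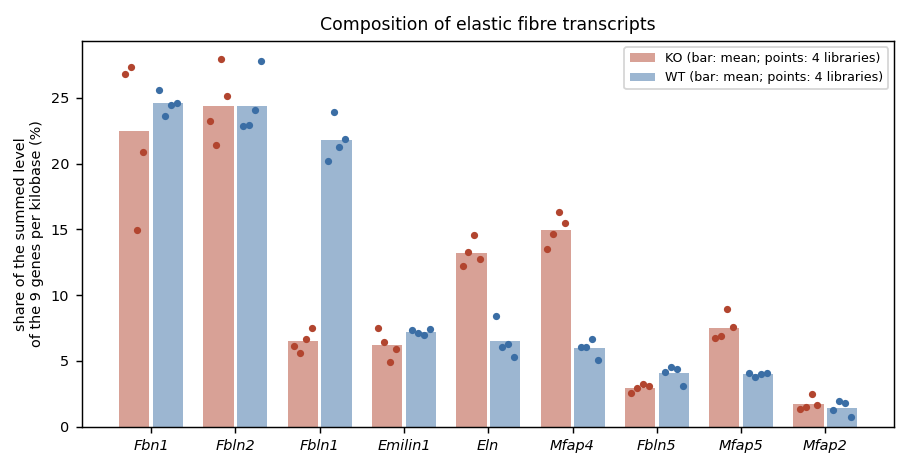
Share of each gene in the summed level per kilobase of the 9 genes, in percent, with KO bars left of WT bars; bars are means and points the 4 libraries of each genotype. The *Fbln1* bar is lower in KO (6.48%) than in WT (21.8%), and the *Eln* and *Mfap4* bars are higher in KO.

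Ratios were taken within a library on log2(normalised count + 1), so that the scaling enters them only through the added 1, and 3 were tested with an exact two-sided permutation test over the 70 assignments of the 8 libraries, in which the smallest possible p is 0.0286. The log2 ratio of *Fbln2* to *Fbln1* was 2.46, 2.48, 2.61 and 2.28 in KO hearts, against 0.72, 0.48, 0.72 and 0.89 in WT hearts. *Fbln2* was thus higher relative to *Fbln1* in KO, by 1.75 on the log2 scale (exact p = 0.0286, adjusted over the 3 ratios 0.0429, higher in 4 of 4 KO hearts). The log2 ratio of *Eln* to *Fbn1* was -1.71, -1.62, -0.62 and -1.29 in KO hearts, against -2.19, -2.54, -2.54 and -2.80 in WT hearts. The elastin message was thus higher relative to the fibrillin-1 message in KO, by 1.20 (exact p = 0.0286, adjusted 0.0429), with the highest ratio in KO replicate 3, whose *Fbn1* value was the lowest. The log2 ratio of *Mfap5* to *Mfap2* averaged 3.69 ± 0.20 in KO and 3.06 ± 0.64 in WT (SD, n = 4 each), overlapped, and did not pass the test (difference 0.64, exact p = 0.143). Without WT replicate 4, in which *Mfap2* rested on 9 read pairs, that difference was 0.91 (exact p = 0.0286, the smallest possible with 3 WT hearts).

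A single library set much of the spread of several genes. KO replicate 3 deviated from the KO mean by -0.84 on the log2 scale for *Fbn1* and by -0.61 for *Emilin1*, while *Mfap2* was highest in it. WT replicate 4 was the lowest WT heart for *Eln*, *Mfap2*, *Mfap4* and *Fbln5*, and deviated from the WT mean by -0.78 for *Mfap2* and by -0.35 for *Fbln5*. The same library was the highest WT heart for *Mfap5*, *Fbln2* and *Emilin1*, with deviations of 0.055, 0.217 and 0.062. In WT replicate 4 the summed smooth muscle markers were 8272, against 11659 to 13072 in the other 3 WT hearts, while the summed fibroblast markers were 55980 there and 53257 to 56351 over all 4. Not every smooth muscle marker fell there, since *Smtn* had 3828, against 3766, 3928 and 3821 in the other 3 WT hearts. The part of these cell markers in the lower values of that library was not tested. Without KO replicate 3 the log2 difference of *Fbn1* was 1.81 and that of *Emilin1* was 1.66, and without WT replicate 4 that of *Mfap2* was 1.71 and that of *Fbln5* was 1.14, all of them still called.

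**Figure D4:**
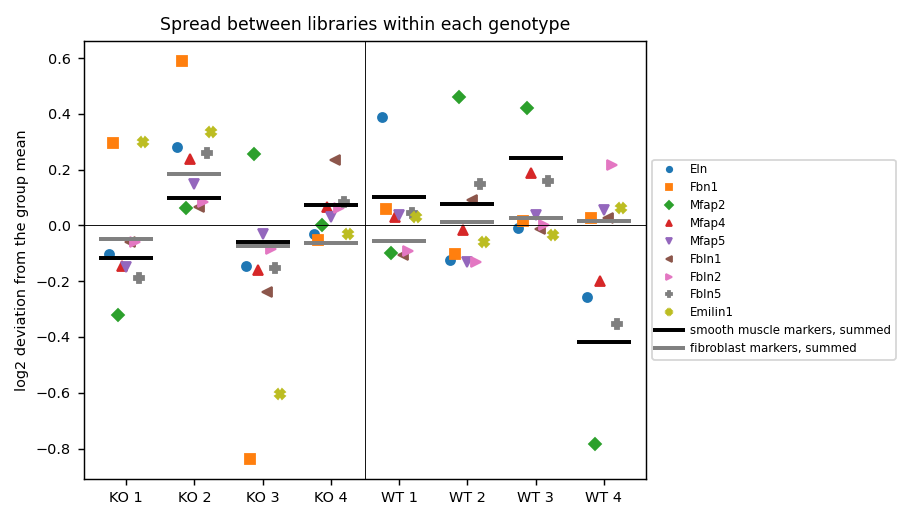
Log2 deviation of each gene from the mean of its genotype, by library, with KO libraries on the left and WT libraries on the right; the black and grey bars give the same deviation for the summed smooth muscle and fibroblast markers. *Fbn1* (-0.84) and *Emilin1* (-0.61) fall away in KO replicate 3. In WT replicate 4 *Mfap2* (-0.78), which rested on 9 read pairs there, and the sum of the smooth muscle markers are both low, while *Fbln2* (0.217) is high.

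Genes with the most similar pattern were found by the root mean square difference in log2 level, relative to the WT mean, over the 8 libraries. For *Eln* the 5 nearest of the tested genes were *Mpeg1* (0.13), a pore-forming protein of macrophages, *Fn1* (0.17), the matrix glycoprotein fibronectin, the anion transporter *Slc26a7* (0.17), the lectin receptor *Clec4n* (0.19) and *Mfap5* (0.20). *Mfap4* stood at rank 16 from *Eln*. For *Fbn1* the nearest was *Emilin1* (0.14), followed by the collagen receptor *Mrc2* (0.14), the actin-bundling protein *Lcp1* (0.14), the protein kinase A inhibitor *Pkib* (0.14) and the proteoglycan *Vcan* (0.15). *Fbn1* was at rank 793 from *Eln*. All 8 libraries enter each measure, so most of the likeness to *Eln* is a like step between the genotypes.

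Other genes of elastic fibre biology were taken as 48 genes in 7 lists, of which 45 were tested. Of these, 26 were higher in KO hearts, 5 were lower and 14 were not called, with a median log2 difference of 0.76. The shares higher and lower, here and in each list below, can be read beside the 30.7% and 28.4% of all tested genes. The scaling mattered for the lower calls, since all 5 were lost with libraries scaled to equal totals of all genes. There 41 of the 45 were higher, but so were 14953 of all 17046 tested genes, and 567 were lower.

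Lysyl oxidases cross-link elastin and collagen. All 5 were higher, with a median log2 difference of 2.26. *Lox* had 1266, 2131, 3779 and 2591 normalised counts in KO hearts, against 155, 122, 125 and 117 in WT hearts (log2 difference 4.12 ± 0.27, adjusted p = 4.13e-07). This gene was highest in KO replicate 3, where *Fbn1* was lowest. *Loxl4* had a log2 difference of 3.96 ± 0.16 (adjusted p = 1.62e-08) and *Loxl3* one of 2.26 ± 0.09 (adjusted p = 1.58e-08). *Loxl1* and *Loxl2* were also higher, with log2 differences of 1.36 and 1.29.

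A list of relatives of the fibulins, fibrillins and emilins had 3 higher and 2 lower of 8 tested, with a median of 0.12. These shares were near the 30.7% and 28.4% of all tested genes. The 3 not called were the emilin and multimerin genes *Emilin2*, *Mmrn1* and *Mmrn2* (adjusted p = 0.263, 0.893 and 0.0927). The other tested genes of this list were thus called, in one direction or the other, a split made after the values were seen. A call in either direction was common among all tested genes (30.7% higher and 28.4% lower). *Fbln7*, a small cell-adhesive fibulin, averaged 49.1 ± 6.77 in KO and 10.8 ± 4.45 in WT (SD, n = 4 each), with a log2 difference of 2.17 ± 0.32 (adjusted p = 0.000167). *Fbn2*, the fibrillin known mainly from development, had 345, 366, 215 and 554 normalised counts in KO hearts, against 140, 97.3, 89.6 and 112 in WT hearts (log2 difference 1.69 ± 0.25, adjusted p = 0.000202). *Efemp1*, which encodes fibulin-3, went the other way, with 77.3, 137, 125 and 167 in KO hearts, against 331, 371, 321 and 278 in WT hearts (log2 difference -1.40 ± 0.21, adjusted p = 0.000191). *Hmcn1*, which encodes hemicentin-1, was the other lower gene of this list (-0.84, adjusted p = 9.18e-05), and *Efemp2*, which encodes fibulin-4, the other higher one (0.76, adjusted p = 0.00158).

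Latent TGF-β binding proteins are relatives of fibrillin that dock on microfibrils. *Ltbp2*, which binds fibrillin-1 but not latent TGF-β, had 3489, 4290, 2242 and 2762 normalised counts in KO hearts, against 219, 227, 218 and 171 in WT hearts (log2 difference 3.90 ± 0.18, adjusted p = 3.79e-08). *Ltbp1*, which anchors latent TGF-β in the matrix, was lower, with 974, 1006, 888 and 877 in KO hearts, against 2569, 2653, 2704 and 2301 in WT hearts (log2 difference -1.45 ± 0.07, adjusted p = 6.9e-08). *Ltbp3* and *Ltbp4* were not called, and the median of these 4 genes was 0.22. Of the 8 ADAMTS and ADAMTS-like genes tied to microfibrils, 3 were higher and 1 was lower, with a median of 0.31. The share higher was near the 30.7% of all tested genes. *Adamtsl2*, whose product binds fibrillin-1 and is mutated in a human short-stature disorder, had a log2 difference of 3.98 ± 0.11 (adjusted p = 1.46e-09), averaging 3615 ± 572 in KO and 226 ± 18.5 in WT. *Thsd4*, which encodes ADAMTSL6, was higher by 0.83 ± 0.10 (adjusted p = 3.95e-05), and *Adamtsl4* was lower (log2 difference -1.03 ± 0.08, adjusted p = 1.46e-06).

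Genes for enzymes that can degrade elastin were also higher in 5 of 7 tested, with none lower and a median of 1.45. The lysosomal cathepsins led this list, with log2 differences of 2.69 ± 0.09 for *Ctss* (adjusted p = 5.46e-09), 2.54 ± 0.23 for *Ctsk* (adjusted p = 5.06e-06) and 2.39 ± 0.13 for *Ctsl* (adjusted p = 1.01e-07). *Mmp7* and *Elane* had no read pair in any library and were not tested. Among the elastin receptor complex and the integrins that bind microfibrils, 7 of 9 were higher and 1 was lower, with a median of 0.67. The integrin subunits *Itgb3* (1.67 ± 0.45, adjusted p = 0.00884) and *Itgb5* (1.10 ± 0.07, adjusted p = 5.8e-07), which pair with the αv subunit, were higher, and *Itgb3* was 712 in KO replicate 3, against 160 to 210 in the other KO hearts and 43.2 to 111 in WT hearts. *Itga8*, the α8 subunit, was lower (-1.17 ± 0.35, adjusted p = 0.0139), and WT replicate 4, at 299, lay within the KO range of 162 to 347. Of the proteoglycans of elastic fibres, 2 of 4 were higher, *Bgn* (biglycan) by 1.96 ± 0.09 (adjusted p = 3.67e-08) and *Vcan* (versican) by 1.36 ± 0.21 (adjusted p = 0.000289), with a median of 0.81.

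**Figure D5:**
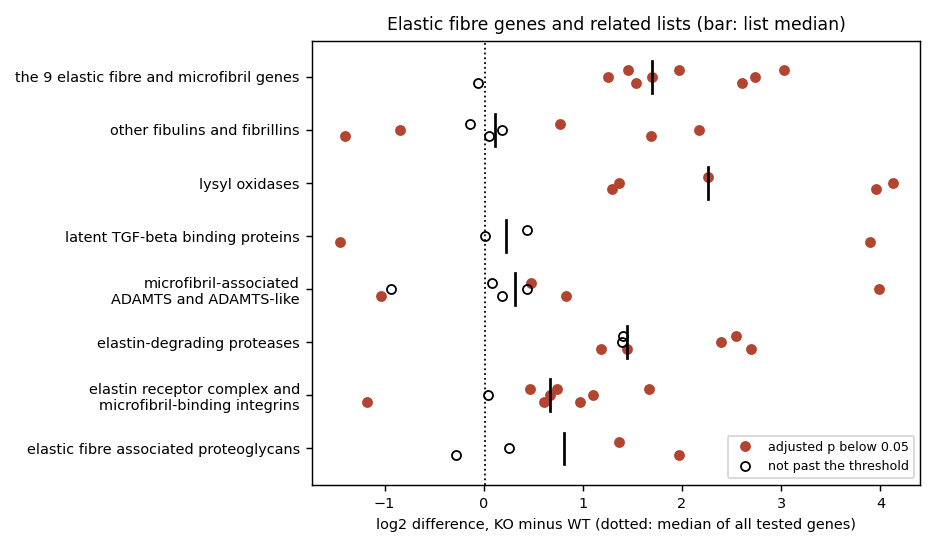
Log2 difference, KO minus WT, of the 9 genes (top row) and of the tested genes of the 7 related lists; filled points passed the test, open points did not, and the vertical bar is the list median. Lysyl oxidases all lie to the right of the dotted median of all tested genes, while the fibulin relatives, the latent TGF-β binding proteins and the ADAMTS genes lie on both sides.

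Markers of the cells that make these proteins, and of other cells of the heart, were read in the same libraries. The counts for each marker list can be read beside the 30.7% and 28.4% of all tested genes called higher and lower. Activated fibroblast markers were higher in 7 of 7, and their summed level was 23445 to 39405 in KO and 3446 to 4153 in WT. *Postn* (periostin) had a log2 difference of 3.16 ± 0.20 and *Fn1* one of 2.68 ± 0.11. General fibroblast markers were higher in 5 and lower in 1 of 9, with sums of 91744 to 109802 in KO and 53257 to 56351 in WT. The higher sums in KO lay in the collagens *Col1a1*, *Col1a2* and *Col3a1*. Their means were 5479, 15528 and 37908 in KO, against 962, 3205 and 6830 in WT. The markers called higher included *Col3a1* (2.44 ± 0.14), a fibrillar collagen. The lower one was *Gsn* (-0.71 ± 0.10), an actin-severing protein, with means of 17209 in KO and 27842 in WT. *Pdgfra*, *Dpt* and *Dcn* were not called (adjusted p = 0.332, 0.782 and 0.0535). The other markers called higher were *Col1a1*, *Col1a2*, the transcription factor *Tcf21* (adjusted p = 0.0143) and the proteoglycan *Lum* (adjusted p = 7.82e-06).

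Smooth muscle markers were higher in 1 and lower in 2 of 6, with sums of 9142 to 10615 in KO and 8272 to 13072 in WT. *Acta2* (smooth muscle actin) was higher (1.10 ± 0.21) and *Smtn* (smoothelin) was lower (-1.65 ± 0.11). Pericyte markers were higher in 1 and lower in 3 of 6, with sums of 19411 to 24355 in KO and 33555 to 34626 in WT. The lower ones were *Rgs5* (-0.43 ± 0.05), *Abcc9* (-1.63 ± 0.12) and *Kcnj8* (-0.51 ± 0.15). The higher one was *Pdgfrb* (0.28 ± 0.10, adjusted p = 0.0292), and *Cspg4* and *Higd1b* were not called (adjusted p = 0.213 and 0.114). *Abcc9* had the largest fall in level, from a mean of 13873 in WT to 4540 in KO. Endothelial markers were higher in none and lower in 3 of 7, with sums of 19236 to 24434 in KO and 23313 to 26675 in WT. The lower ones were *Tek* (-0.33 ± 0.07, adjusted p = 0.00139), *Tie1* (-0.24 ± 0.06, adjusted p = 0.00632) and *Kdr* (-0.70 ± 0.26, adjusted p = 0.0405). *Cdh5* stood at -0.10 ± 0.08 (adjusted p = 0.272). The call of *Kdr* was lost with edgeR (adjusted p = 0.0761), DESeq2 (0.0957), edgeR with the authors' size factors (0.075), equal nuclear totals (0.141) and without any of 6 single libraries (0.061 to 0.116). Endocardial markers were higher in 1 of 3, with sums of 1240 to 2771 in KO and 1086 to 1539 in WT. *Plvap* was the higher one (1.89 ± 0.18), and *Npr3* had a log2 difference of 0.33 ± 0.25 (adjusted p = 0.29). Without KO replicate 1 *Npr3* was called (0.58, adjusted p = 0.0189), and without KO replicate 3 it stood at 0.13.

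Macrophage markers were higher in 6 of 6, with sums of 9734 to 12025 in KO and 3343 to 3778 in WT, led in level by *Mrc1* (1.41 ± 0.16) and *Csf1r* (1.40 ± 0.12). Cardiomyocyte markers were lower in 8 of 8, with sums of 1420233 to 1736366 in KO and 3477851 to 3604112 in WT. Their most abundant genes were *Ttn* (-0.99 ± 0.14), the titin of all striated muscle, and *Myh6* (-1.41 ± 0.11), the cardiac α-myosin heavy chain. With libraries scaled to equal totals of all genes these 2 had log2 differences of 0.46 and 0.04, and *Rgs5* and *Gsn* had 1.02 and 0.74. All of these stayed below the median of all tested genes under that scaling, 1.44. None of the 5 tested mesothelial markers was called (sums 134 to 338 in KO and 133 to 230 in WT, with *Wt1* at -0.20 ± 0.18, adjusted p = 0.385, and *Msln* at 1.36 ± 0.94, adjusted p = 0.236). Single libraries decided *Msln*, which was called without KO replicate 1 (2.32, adjusted p = 0.0126) and stood at 0.67 without WT replicate 2. None of the 3 tested adipocyte markers was called (sums 53.6 to 185 in KO and 20.7 to 132 in WT, with *Cfd* at 1.09 ± 0.50, adjusted p = 0.082, and *Plin1* at -0.12 ± 0.69, adjusted p = 0.897). Of the 3 tested skeletal muscle genes *Acta1* (2.56 ± 0.30) and *Tnnt3* (2.43 ± 0.32) were higher and *Ckm* (-1.75 ± 0.13) was lower. The sums of this list were 21529 to 42542 in KO and 32148 to 38661 in WT. WT hearts also expressed *Acta1* and *Ckm*, at means of 3418 and 32914, while the skeletal myosin genes *Myh4* and *Myh2* were at or near 0. For each related or marker list with no gene called in a direction by limma, 0 passed at an unadjusted p below 0.05 in that direction, and edgeR and DESeq2 called 0, except that DESeq2 called *Cfd* higher (adjusted p = 0.0383). *Cfd* was called higher also without KO replicate 1 (1.34, adjusted p = 0.0452), without KO replicate 3 (1.25, adjusted p = 0.0498) and with equal nuclear totals (1.31, adjusted p = 0.0416) or library totals (2.48, adjusted p = 0.000615), and stood at 0.63 without WT replicate 4. The part of these cell types in the differences of the elastic fibre genes was not tested.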

How the data were processed

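Paired-end TruSeq libraries were made from total heart RNA (miRNeasy). Per the study's methods, the authors aligned reads with HISAT2 2.10 to mm10 and counted read pairs by strand with featureCounts 1.6.3 on Ensembl GRCm38. The deposited unit is a signal: normalised counts, in which the authors divided each library's counts by its DESeq2 1.18.1 size factor (R 3.5.1). Another deposited sheet holds the authors' own fold changes and p-values and was not used.

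The read pairs behind 100% of the values were recovered as whole numbers (within 0.01). Log2(normalised count + 1) of genes with a mean of at least 10 was tested by genotype with limma 3.58.1 (trend, two-sided, Benjamini-Hochberg, 0.05) in R 4.3.3, after tests on simulated data. Ratios were tested by exact permutation. edgeR 4.0.16 and DESeq2 1.42.0 on recovered read pairs, other scalings, pseudocounts, filters, a replicate block and left-out libraries were alternatives, and edgeR called 5237 genes higher and 4786 lower. The 9 genes and all lists were chosen with earlier results of these data known. The genes named were the 9, up to 3 called genes of each related list with the largest difference, the 5 nearest in pattern to *Eln* and *Fbn1*, and the 2 most abundant of each marker list; a few others were named after their values were seen. The labels call the libraries separate samples and the study gives 4 animals per group; p-values measure the spread between these libraries. Windows of the RefSeq promoter table, in which 6 of the 9 genes were matched by symbol, were searched for 6 motifs. Gene positions matched GENCODE M21 for 53548 of 54495 nuclear identifiers and for all 9 genes.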

Additional observations from a re-analysis of the deposited data

Results flagged for a closer look

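In WT hearts *Mfap5* had 242, 216, 243 and 245 normalised counts, and WT replicate 2 stood apart from the other 3, with a gap of 0.894 of the whole WT range, above Dixon's critical value for 4 values. The range itself was narrow, 1.14-fold from lowest to highest, and the lowest KO heart had 1302. This was 1 of 18 groups of 4 values examined, of which chance alone would mark about 1 in 20.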

How the results depend on the processing

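Over 19 alternative settings, 167 of the 171 differences of the 9 genes kept their direction and their side of the threshold, and 8 of the 9 genes did so in every one, *Fbln1* being the exception. Leaving out 1 library at a time gave 2.64 to 2.86 for *Eln*, 1.34 to 1.81 for *Fbn1*, 1.71 to 2.13 for *Mfap2*, 1.14 to 1.32 for *Fbln5*, 1.35 to 1.66 for *Emilin1* and -0.13 to 0.03 for *Fbln1*, -0.74 to 0.47 for *Plin1*, and 0.44 to 0.91 for the ratio of *Mfap5* to *Mfap2*. Without both KO replicate 3 and WT replicate 4, a setting chosen after seeing the data, *Fbln1* was at 0.036 and *Wt1* at 0.029, and *Wt1* ranged down to -0.31 without WT replicate 3. Scaling to equal nuclear totals gave 7355 genes higher and 3268 lower, against 5241 and 4839, with *Fbln1* at 0.18, *Cdh5* at 0.13, *Wt1* at 0.032 and *Plin1* at 0.092. Scaling to equal totals of all genes gave 14953 higher and 567 lower, 41 and 0 in the related lists, and put above 0 *Fbln1* (1.39), *Efemp1* (0.037), *Adamtsl4* (0.41), *Itga8* (0.27), *Gsn* (0.74), *Rgs5* (1.02), *Kdr* (0.74), *Cdh5* (1.34), *Wt1* (1.23), *Ttn* (0.46), *Myh6* (0.036) and *Plin1* (1.20). Each of these named genes lay below the median of all tested genes under this scaling, 1.44. The large share of mitochondrial read pairs in WT enters the total of all genes by construction. No pairing by replicate number showed in the data (correlations of same-numbered libraries 0.04, -0.07, 0.01 and -0.04). The labels do not say whether same-numbered animals shared a litter or batch, and such correlations cannot exclude it. With the replicate block 5076 genes were higher and 4645 lower, with the calls of the 9 genes as before. Among the 9 genes, depth was lowest for *Mfap2* in WT, at 9 to 31 read pairs.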

Other observations

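Some related genes, chosen after their values were seen, set KO replicates 3 and 4 apart from KO replicates 1 and 2. *Mmp9*, a gelatinase that can cleave elastin, had 20.9, 14.8, 316 and 293 normalised counts in KO hearts, against 28.6, 27.1, 32.4 and 22.4 in WT hearts, and was not called (adjusted p = 0.205). *Hspg2*, which encodes the basement membrane proteoglycan perlecan, had 27614, 20513, 9730 and 11841 in KO hearts, against 22797, 20447, 15028 and 20427 in WT hearts, and was not called either (adjusted p = 0.419). *Ltbp4*, which is needed for elastic fibre assembly in mice, had 6132, 4815, 2555 and 3291 in KO hearts, against 4394, 4171, 3105 and 4156 in WT hearts, so that its KO hearts lay on both sides of every WT heart (adjusted p = 0.955).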
